A study of Rattus norvegicus with 12 samples.

Results

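DEAD and DEAH box proteins are RNA helicases, enzymes that use ATP to unwind short RNA duplexes or to strip proteins from RNA. They are named after the amino acid letters of a conserved motif that takes part in ATP binding and hydrolysis. The gene family was taken here as every gene whose single symbol in the array annotation began with Ddx or Dhx followed by a number, which gave 47 genes of 14217 measured, 32 Ddx and 15 Dhx. Each gene was represented by its brightest probe set, and the family was proposed with its log2 change between the states already known, so the values below describe the genes and are not an independent test of the family.

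DEAD box helicases such as Ddx21 mostly pry apart short local duplexes, whereas DEAH box helicases such as Dhx15 pull on a single strand and often need a G-patch protein to become active. In the nucleolus a large set of them drives the folding and trimming of pre-ribosomal RNA. In the nucleoplasm another set remodels the spliceosome at each of its steps, and in the cytoplasm others open structured mRNA leaders for translation, dismantle export complexes or feed mRNA into decay. A few, among them Dhx58 and Ddx60, act in the RIG-I-like receptor pathway, in which foreign or misplaced double-stranded RNA is sensed.

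The cells were F111, a fibroblast line of the Fischer rat, grown in DMEM with fetal calf serum. NA16 cells were held in suspension over agarose for 16 h, and A16 cells were attached to plastic for 16 h and served as the control. Total RNA of each state was hybridised to 3 Affymetrix rat arrays, namely biological replicates 1 and 2 and technical replicate 2. Both states come from 1 cell line. The study describes cell death in suspension and calls NA16 the surviving cells, and no step that removed dying cells before RNA extraction is described in the sources used here, so NA16 RNA may come from a mixture of surviving and dying cells.

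Technical replicate 2 was averaged with biological replicate 1, as the numbering of the labels points to without stating it, so each state had 2 replicates. Over all genes the NA16 technical array correlated at 0.992 with biological replicate 1 and at 0.997 with biological replicate 2, whereas the A16 one correlated at 0.998 and at 0.994. In NA16 the array thus lay nearer to biological replicate 2 than to the replicate it was averaged with. The counts of helicase genes are therefore given under the other assignments too. Array medians lay between 152.1 and 157.1 in RMA intensity. Of the fibroblast markers Col1a1, Col1a2 and Vim were bright, with log2 signals of 13.69 or more on every array, while Dcn, which encodes decorin, was dim in both states at 5.56 to 6.20 on NA16 arrays and 5.12 to 5.39 on A16 arrays. Of the 10 fibroblast markers 4 were called higher, Pdgfrb at 1.40, Pdgfra at 0.78, Dcn at 0.58 and Thy1 at 0.47, and 0 lower. Over all genes 21.9% were called higher and 16.9% lower. The arrays of Thy1 overlapped between the states. The mean level of the fibroblast markers was 12.03 to 12.34 on NA16 arrays and 11.84 to 12.05 on A16 arrays. The log2 ratio of the 3′ to the 5′ control probe sets, a sign of RNA integrity, was 0.866 to 0.933 for beta-actin on NA16 arrays and 0.369 to 0.438 on A16 arrays. For GAPDH it was -0.028 to 0.062 on NA16 arrays and -0.068 to 0.001 on A16 arrays. Whether these ratios had a part in the helicase values was not tested.

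Most of the helicase genes were lower in NA16 cells. Of the 47 genes, 25 were called lower (53.2%), 8 were called higher (17.0%) and 14 were not called, at a Benjamini-Hochberg adjusted p under 0.05 over all genes in limma. Over all 14217 genes the shares called were 16.9% lower and 21.9% higher. Among the 7108 genes above the median signal the shares were 27.1% lower and 29.3% higher. Of the 39 helicase genes among them, 22 were lower and 7 higher. With the technical array averaged with biological replicate 2 instead, 24 helicase genes were lower and 7 higher, beside 16.1% and 20.1% of all genes. Without the technical arrays 21 helicase genes were lower and 6 higher, beside 12.9% and 16.7% of all genes. At a change of at least 2-fold in the main fit, 10 helicase genes were lower and 6 higher, where all genes had 6.12% and 7.74%. The median log2 change was -0.53 over the family and 0.01 over all genes. Because the family was proposed from this same contrast, nothing further is read from these shares. In whole-culture RNA, fewer cells of a kind and less RNA per cell cannot be told apart.

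The states were also set apart array by array. All 3 NA16 arrays lay below all 3 A16 arrays for 25 of the 47 genes and above them for 10, while 12 overlapped. Over all genes the shares were 23.9% below and 27.8% above, 51.7% in all. Of the 32 Ddx genes 19 were lower and 4 higher, with a median of -0.56, and of the 15 Dhx genes 6 were lower and 4 higher, with a median of 0.02. The difference between these subfamilies was not tested.

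**Figure D1:**
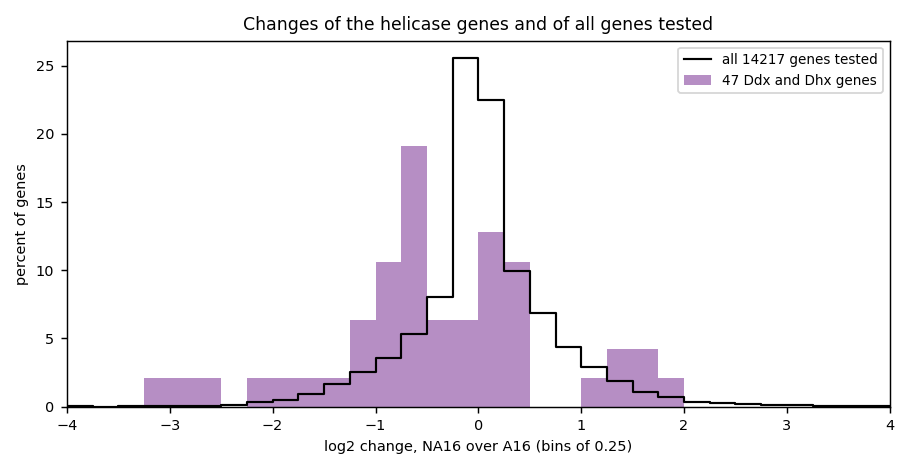
Share of genes in bins of 0.25 in log2 change, NA16 over A16, for the 47 helicase genes (filled) and for all 14217 genes (line); the y axis is the percent of genes in each set. Most helicase genes lie to the left of 0, with a family median of -0.53. The bins from 0 to 0.25 and from 0.25 to 0.5 hold 6 and 5 helicase genes. A separate small group lies above 1, the 6 genes called higher at 2-fold or more.

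The family was then read by role. The nucleolar group was the largest, with 15 genes of ribosome biogenesis, of which 10 fell, 1 rose and 4 were not called, at a median of -0.73. The splicing group held 10 genes with 5 lower and 1 higher (median -0.20), and the group of mRNA export, translation and decay held 8 with 4 lower and 0 higher (median -0.55). Transcription, small RNA processing and RNP assembly had 4 genes with 3 lower, and both genes of the mitochondrial ribosome were lower. The genes called higher lay elsewhere for the most part: both measured helicase genes assigned to innate RNA sensing, the germ line gene Ddx25 and 3 of the 4 genes whose role is less well known. These roles were assigned from general knowledge of the mammalian or yeast proteins, with a single role per gene although some have several.

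**Figure D2:**
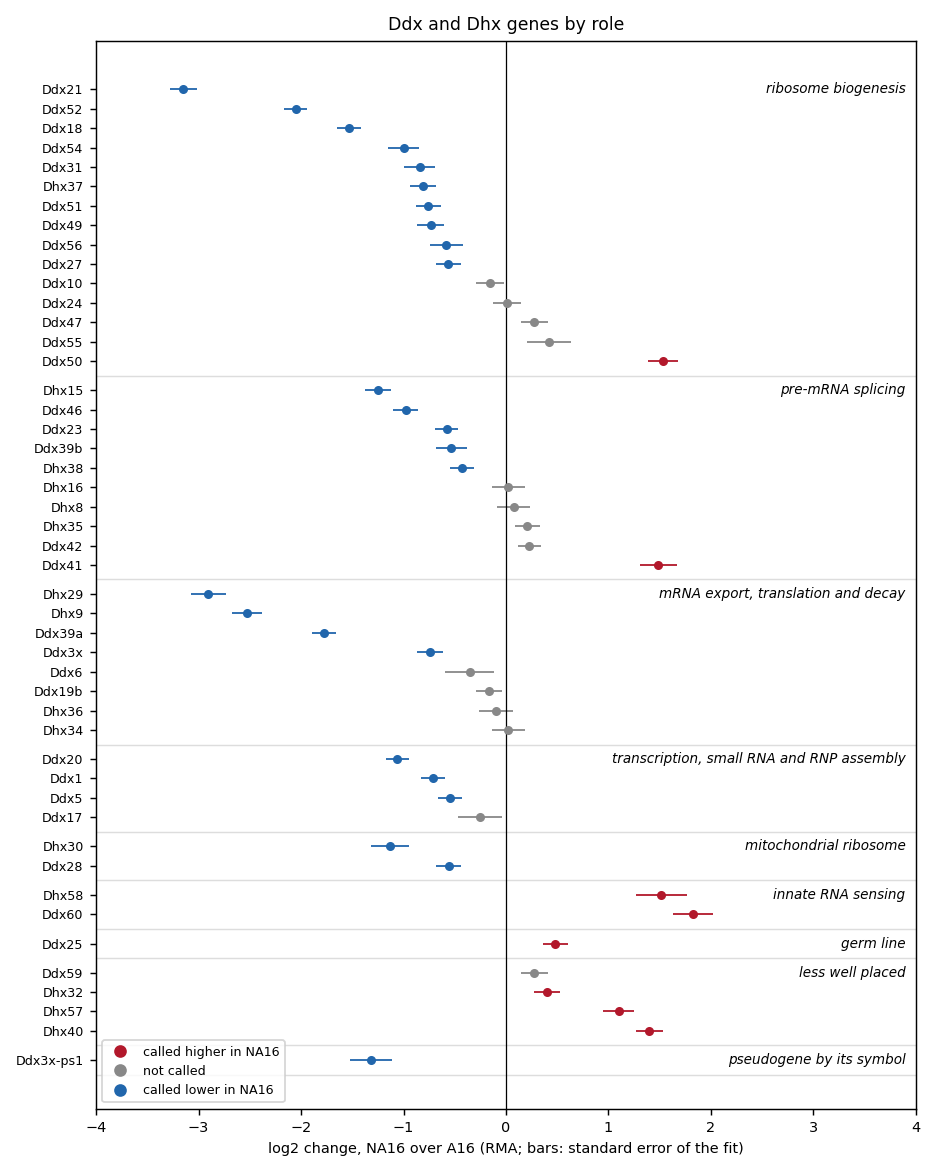
Log2 change, NA16 over A16, of each of the 47 helicase genes, grouped by role and sorted within a role; points are fitted changes in RMA signal and bars are the standard error of the fit (n = 2 per state). Blue points, called lower, outnumber red points, called higher, in the upper groups, where many genes were also not called. Red points gather in innate sensing and the less well placed genes, with Ddx50 and Ddx41 as the exceptions in their groups.

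Ddx21 had the largest change of the family. It encodes a nucleolar helicase that couples transcription by RNA polymerase I to rRNA processing. Given in the order biological replicate 1, biological replicate 2 and technical replicate 2, here and below, its log2 signal was 8.33, 8.13 and 8.48 on NA16 arrays, against 11.46, 11.40 and 11.41 on A16 arrays. The A16 arrays lay close together and far above every NA16 array, and the change was -3.15 (SE 0.13), an 8.88-fold lower signal. A dimmer probe set of the gene was lower too, at -2.67, and on the PLIER values of the same arrays the changes were -3.09 and -3.04.

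Ddx52 and Ddx18, whose yeast counterparts act on the small and the large ribosomal subunit, came next in this group. Ddx52 read 7.43, 7.15 and 7.17 on NA16 arrays, against 9.31, 9.30 and 9.23 on A16 arrays, and changed by -2.05 (SE 0.12), the lowest signal among the A16 arrays being above the highest among the NA16 ones by a wide margin. Ddx18 read 8.80, 9.14 and 9.17 on NA16 arrays, against 10.56, 10.55 and 10.69 on A16 arrays, and changed by -1.53 (SE 0.12). The NA16 array of biological replicate 1 was the lowest of its state for Ddx18 and the highest for Ddx52, yet the states stayed apart in both. The remaining probe set of each gene was lower as well, at -1.52 for Ddx52 and -1.89 for Ddx18.

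Ddx54, a large subunit helicase, read 8.47, 9.19 and 9.13 on NA16 arrays, against 9.90, 10.02 and 10.03 on A16 arrays. It changed by -0.998 (SE 0.15), 1.998-fold, which left it just outside the 2-fold count. Here the NA16 array of biological replicate 1 lay well under the other two NA16 arrays, and all 3 lay under A16. The other probe set of Ddx54 had a change of -1.48.

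The rest of the nucleolar genes had smaller changes. Ddx31 (-0.84, SE 0.15), Dhx37 (-0.81, SE 0.13), Ddx51 (-0.76, SE 0.12), Ddx49 (-0.73, SE 0.13), Ddx56 (-0.58, SE 0.16) and Ddx27 (-0.56, SE 0.12) were also called lower. Dhx37 releases the U3 snoRNA from the small subunit precursor, and the other five are large or small subunit helicases by their yeast counterparts. The calls of Ddx56 and Ddx27 were less steady, kept in 14 and 15 of 19 alternative settings. They were lost without A16 replicate 1 (Ddx56 -0.38, Ddx27 -0.50) and without NA16 replicate 2 (Ddx56 -0.50, Ddx27 -0.48). Ddx10 (-0.15, SE 0.14) and Ddx55 (0.42, SE 0.22) were not called, although Ddx55 passed without A16 replicate 1 (0.70) or without NA16 replicate 2 (0.62).

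A pair of bright nucleolar genes did not pass the test. Ddx24, needed for large subunit assembly, read 11.67, 11.89 and 11.81 on NA16 arrays, against 11.90, 11.67 and 11.99 on A16 arrays. The states overlapped, with a change of 0.01 (SE 0.14). Ddx47, a small subunit factor, read 11.39, 11.06 and 11.13 on NA16 arrays, against 10.88, 10.77 and 11.11 on A16 arrays. Its change of 0.28 (SE 0.14) did not pass the threshold, and one A16 array stood among the NA16 arrays.

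Ddx50 was the one nucleolar helicase called higher. It is the paralog of Ddx21, and in the RefSeq annotation of the GRCr8 assembly the pair are neighbours on chromosome 20 with 0 protein-coding genes between them. Ddx50 read 11.52, 11.10 and 11.29 on NA16 arrays, against 9.92, 9.64 and 9.70 on A16 arrays. All NA16 arrays lay above all A16 arrays, and the change was 1.53 (SE 0.14), or 2.89-fold higher, against the 8.88-fold lower signal of its neighbour. This rise rests on 1 probe set. The other probe sets of Ddx50, which were dimmer, changed by 0.02 and 0.09, neither called, and in PLIER by -0.16 and -0.14, while the bright one changed by 1.46 in PLIER. With all probe sets averaged, the change of Ddx50 was 0.55 and was still called.

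The sequences upstream of the start are shown for this pair because the brightest probe sets of these neighbouring paralogs changed in opposite directions. Ddx18 is shown because its window holds the E-box CACGTG. It is alone in this among the 10 of the 12 largest falls that have a window (Ddx52 and Ddx3x-ps1 have none here). Ddx60 is shown because its window holds repeated copies of an interferon-type motif. Each run is 250 bases long, ends at the base before the annotated start, is written 5′ to 3′ on the strand of the gene, and comes from RefSeq on the GRCr8 reference assembly, not from F111 cells. Capitals mark matches on either strand to the E-box CACGTG, to the CCAAT box (read as ATTGG where it lies on the opposite strand) or to the interferon-type motif GAAANNGAAA.
Ddx21, chr20:31097239-31097488, minus strand: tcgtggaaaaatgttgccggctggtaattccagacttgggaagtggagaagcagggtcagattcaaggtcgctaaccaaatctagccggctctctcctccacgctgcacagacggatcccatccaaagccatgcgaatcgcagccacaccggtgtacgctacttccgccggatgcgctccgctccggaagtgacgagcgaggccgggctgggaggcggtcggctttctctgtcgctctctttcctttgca
Ddx50, chr20:31133653-31133902, minus strand: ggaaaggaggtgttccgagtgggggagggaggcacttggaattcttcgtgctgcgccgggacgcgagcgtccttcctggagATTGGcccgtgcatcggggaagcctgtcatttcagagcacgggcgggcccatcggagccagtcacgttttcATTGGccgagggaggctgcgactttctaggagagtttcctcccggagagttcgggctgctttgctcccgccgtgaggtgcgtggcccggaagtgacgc
Ddx18, chr13:35295973-35296222, minus strand: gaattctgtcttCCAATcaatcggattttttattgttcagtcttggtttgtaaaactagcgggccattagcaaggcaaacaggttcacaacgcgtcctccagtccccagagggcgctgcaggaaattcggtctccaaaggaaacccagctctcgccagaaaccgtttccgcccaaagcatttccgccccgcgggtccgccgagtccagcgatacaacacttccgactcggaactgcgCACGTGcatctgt
Ddx60, chr16:33208840-33209089, minus strand: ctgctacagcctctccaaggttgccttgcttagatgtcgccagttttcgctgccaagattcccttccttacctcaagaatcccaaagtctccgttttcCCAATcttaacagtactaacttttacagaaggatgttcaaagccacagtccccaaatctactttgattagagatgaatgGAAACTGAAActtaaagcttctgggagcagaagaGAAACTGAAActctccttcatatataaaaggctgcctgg

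The motifs were counted in windows of 300 bases, 250 before and 50 after the start, which RefSeq tables held for 42 of the 47 genes. CACGTG, the core bound by MYC and by other factors of the same class and its own reverse complement, was found in 5 of 42 windows (2 of 23 genes called lower, 2 of 7 called higher and 1 of 12 not called), and in 6.65% of the windows of 27457 genes. The Ddx18 match starts 13 bases before the start of the gene. CCAAT was found in 21 of 42 windows, beside 37.7% of all, and Ddx21 has none of these motifs in its window while Ddx50 has CCAAT 2 times. GAAANNGAAA, a core of interferon-stimulated response elements, was found in 2 of 42, Ddx49 and Ddx60, beside 3.77% of all. In Ddx60 it occurs 2 times, from 73 and from 39 bases before the start, both as the letters GAAACTGAAA. Dhx58 had no window here and was not searched. The CCAAT box and the interferon-type motif were chosen after the values were seen. None of the motifs overlaps another in the printed runs, and a match gives the letters only, without showing that a factor binds there.

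Among the splicing helicases Dhx15 and Ddx46 fell furthest. Dhx15 takes spent spliceosomes apart and also works on ribosome precursors, in each case with G-patch partners. It read 11.41, 11.16 and 11.21 on NA16 arrays, against 12.54, 12.38 and 12.64 on A16 arrays, a change of -1.25 (SE 0.13). Ddx46 is needed when the U2 snRNP settles on the branch site, and read 9.30, 9.07 and 9.24 on NA16 arrays, against 10.12, 10.14 and 10.18 on A16 arrays, a change of -0.98 (SE 0.12). For both genes the arrays of each state lay close together and the states were far apart.

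Ddx23, which exchanges U1 for U6 at the 5′ splice site, was lower at -0.58, SE 0.11. Ddx39b, which serves both the U2 snRNP and mRNA export, was lower at -0.53, SE 0.15, and Dhx38, which acts before the second catalytic step, at -0.43, SE 0.12. The last of these changes are small and were called in only 13 (Ddx39b) and 12 (Dhx38) of 19 alternatives. Ddx39b was not called without A16 replicate 1 (-0.56), A16 replicate 2 (-0.51) or NA16 replicate 1 (-0.34). Dhx38 was not called when any 1 of the 4 replicates was left out (-0.52 to -0.33), nor Ddx23 without NA16 replicate 1 (-0.53). Dhx16 (0.02, SE 0.16), Dhx8 (0.08, SE 0.16) and Dhx35 (0.21, SE 0.12), also spliceosomal, were not called, so the DEAH box enzymes of successive splicing steps did not all pass the threshold. Ddx42, which travels with the SF3b complex, read 10.96, 10.84 and 10.83 on NA16 arrays, against 10.59, 10.67 and 10.63 on A16 arrays. The NA16 arrays lay above the A16 ones by a small margin, and the change of 0.23 (SE 0.11) did not pass.

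Ddx41 was the exception among the splicing genes. It sits in the catalytic spliceosome, and it has also been described as a cytosolic sensor of DNA. It read 10.82, 11.62 and 11.38 on NA16 arrays, against 9.69, 9.90 and 9.98 on A16 arrays. All NA16 arrays were above all A16 arrays, although biological replicate 1 was the lowest NA16 array by a clear gap, and the change was 1.49 (SE 0.18), 2.81-fold higher.

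The helicases of export and translation held the next largest falls after Ddx21. Dhx29 binds the small ribosomal subunit and helps it scan structured leaders. Its log2 signal was 8.60, 8.11 and 8.54 on NA16 arrays, against 11.34, 11.16 and 11.32 on A16 arrays, and the change was -2.90 (SE 0.17), 7.48-fold lower. Dhx9, also called RNA helicase A, resolves long or structured RNA in the nucleus and on translated mRNA. It read 9.09, 9.38 and 9.21 on NA16 arrays, against 11.65, 11.92 and 11.68 on A16 arrays, a change of -2.53 (SE 0.14), 5.77-fold lower. In both genes the gap between the states was several times the spread within either.

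Ddx39a, an export helicase closely related to Ddx39b, read 10.53, 10.75 and 10.75 on NA16 arrays, against 12.47, 12.40 and 12.61 on A16 arrays, a change of -1.78 (SE 0.12). The states were apart on all arrays, and the change of Ddx39a was larger than the -0.53 of Ddx39b, although the difference between these paralogs was not tested. Ddx3x, which opens structured leaders of particular mRNAs, was lower at -0.74, SE 0.13, and its second probe set was lower at -1.10. Ddx3x-ps1, by its symbol a pseudogene of Ddx3x, read 10.39, 10.07 and 10.52 on NA16 arrays, against 11.44, 11.84 and 11.19 on A16 arrays, a change of -1.32 (SE 0.21). The NA16 arrays were all lower, but the A16 arrays of Ddx3x-ps1 were widely spread. Transcripts of a pseudogene and of its parent share sequence, and whether this probe set separates them was not tested.

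Ddx6 and Dhx36 were bright and not called. Ddx6 represses and helps to decay mRNA in P-bodies, and read 10.62, 9.78 and 10.41 on NA16 arrays, against 10.51, 10.38 and 10.74 on A16 arrays. The NA16 array of biological replicate 2 lay well under the rest for Ddx6, the states overlapped, and the change was -0.35 (SE 0.24). Without NA16 replicate 1 the change was -0.72, but that low array was then the only NA16 array left. Dhx36 unwinds G-quadruplexes, and read 11.26, 10.67 and 10.90 on NA16 arrays, against 11.18, 10.86 and 10.99 on A16 arrays, also with overlap, at -0.10 (SE 0.17). Ddx19b, which remodels mRNPs at the nuclear pore, was not called at -0.16, SE 0.13, nor was Dhx34, a factor of nonsense-mediated decay, at 0.02, SE 0.16. For Ddx19b another 3 probe sets carry the symbols of both Ddx19b and its neighbour Ddx19a and were not used.

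**Figure D3:**
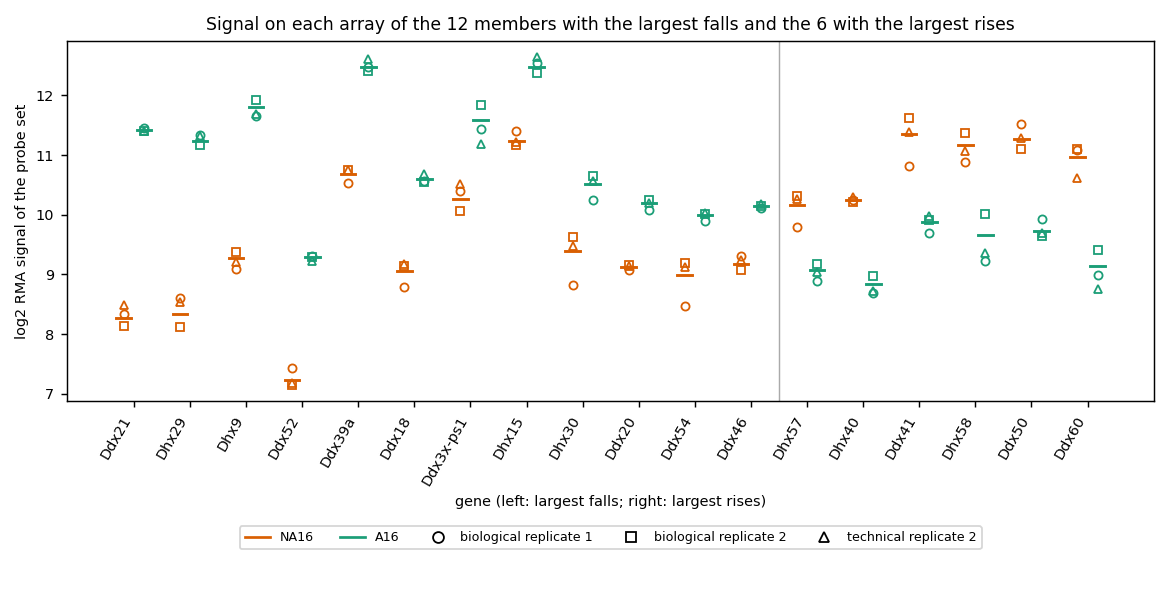
Log2 RMA signal on each array for the 12 helicase genes with the largest falls (left of the line) and the 6 with the largest rises (right); orange marks NA16 and green A16, marker shape gives the array, and bars are state means with technical replicate 2 averaged into replicate 1. In all 18 genes the NA16 and A16 arrays do not overlap, and the gap is widest for Ddx21 and Dhx29; signals of different genes come from different probe sets and are not to be compared.

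Outside these groups, Ddx20 is the helicase of the SMN complex, which loads Sm proteins onto spliceosomal snRNAs. It read 9.07, 9.15 and 9.14 on NA16 arrays, against 10.08, 10.24 and 10.20 on A16 arrays, a change of -1.06 (SE 0.11). All 6 arrays lay close to their state mean and the states were apart. Ddx1, part of the tRNA ligase complex, was lower at -0.71, SE 0.12. Ddx5, a helicase of the Drosha complex and a transcription cofactor, was lower at -0.54, SE 0.12, a call lost without NA16 replicate 2 (-0.46), whereas its close paralog Ddx17 read 10.03, 10.62 and 10.39 on NA16 arrays, against 10.37, 10.94 and 10.42 on A16 arrays. The arrays of Ddx17 overlapped between the states, with biological replicate 2 the highest in each, and the change of -0.25 (SE 0.21) was not called.

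Both helicases of the mitochondrial ribosome were lower. Dhx30, found in mitochondrial RNA granules, read 8.82, 9.63 and 9.48 on NA16 arrays, against 10.25, 10.64 and 10.56 on A16 arrays, a change of -1.13 (SE 0.18). Biological replicate 1 was the lowest array of Dhx30 in each state, and the states did not overlap. Ddx28, needed for the large mitochondrial subunit, was lower at -0.56, SE 0.12, with the call kept in 15 of 18 alternatives but not without A16 replicate 1 (-0.47) or NA16 replicate 2 (-0.51).

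Both measured helicase genes assigned to innate RNA sensing, Ddx60 and Dhx58, moved the other way. As each gene was given a single role, these are not all the helicases with a part in sensing. Ifih1, which encodes MDA5 and lies outside the family by its symbol, was at 0.30 and not called. Ddx60, an interferon-induced helicase described as a cofactor of RIG-I, read 11.08, 11.10 and 10.62 on NA16 arrays, against 8.99, 9.41 and 8.76 on A16 arrays. All NA16 arrays lay above all A16 arrays, and the change was 1.83 (SE 0.20), 3.55-fold higher, the largest rise of the family. Dhx58, better known as LGP2, binds double-stranded RNA and tunes signalling by its relatives RIG-I and MDA5. Dhx58 read 10.88, 11.37 and 11.07 on NA16 arrays, against 9.22, 10.01 and 9.37 on A16 arrays, a change of 1.52 (SE 0.25). The A16 array of biological replicate 2 was the highest of its state for both sensors, and the dimmer probe sets of Dhx58 rose by 1.30 and 1.38.

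The 4 genes of less known function included 3 that rose. Dhx40 read 10.25, 10.21 and 10.30 on NA16 arrays, against 8.69, 8.97 and 8.72 on A16 arrays, a change of 1.40 (SE 0.13). Dhx57 read 9.79, 10.32 and 10.26 on NA16 arrays, against 8.89, 9.18 and 9.04 on A16 arrays, a change of 1.10 (SE 0.15). All NA16 arrays were higher in both, and for Dhx57 biological replicate 1 was the lowest array of each state. Dhx32 was called at 0.40, SE 0.13, but only 5 of 19 alternatives kept that call and leaving out any 1 replicate ended it (0.29 to 0.51). Ddx59, which has been tied to human ciliary disease, was not called at 0.28, SE 0.13. Ddx25, the testis helicase that takes part in sperm development, was called at 0.48, SE 0.12 from a dim probe set with NA16 arrays at 6.57 to 6.88 and A16 arrays at 6.04 to 6.31, and this call was kept in 12 of 17 alternatives. It was lost without A16 replicate 1 (0.48), A16 replicate 2 (0.49) or NA16 replicate 1 (0.39). The germ cell markers measured went both ways, Sycp3 higher at 0.66 and Tex14 lower at -1.13, and their mean level was 5.98 to 6.06 on NA16 arrays and 6.23 to 6.27 on A16 arrays.

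Probe sets of the same gene mostly changed alike. Of the 47 genes 17 had several probe sets, 71 probe sets in all over the family. In RMA values only Ddx19b had probe sets of different sign, at -0.27, -0.16 and 0.03, and in PLIER values those of Ddx50 differed in sign too. In RMA 0 genes had called probe sets in opposite directions. Ddx50 was the gene with the widest gap between its probe sets.

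**Figure D4:**
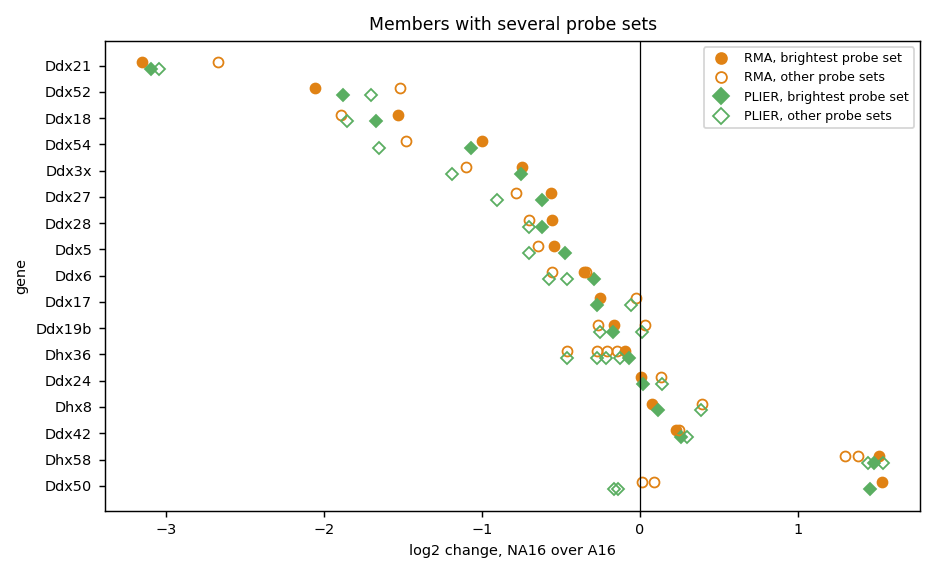
Log2 change, NA16 over A16, of every probe set of the 17 helicase genes that have several; circles are RMA and diamonds PLIER values of the same arrays, and filled markers are the brightest probe set of a gene. The probe sets of Ddx21, Ddx52, Ddx18 and Dhx58 lie together on one side of 0, while Ddx50 has its brightest probe set at 1.53 and the others at 0.02 and 0.09 in RMA.

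Genes that work with the helicases were counted from 3 lists. The first held RNA helicases with other names, of which 17 of 21 were measured: 5 were lower, 3 higher and 9 not called, at a median of -0.10. Dicer1, which cuts small RNA precursors, was at -1.71 (adjusted p = 0.00316). Supv3l1, the mitochondrial RNA helicase, was at -0.99 (adjusted p = 0.00175), and Ascc3, which resolves collided ribosomes, at 0.93 (adjusted p = 0.00729). The eIF4A paralogs split. Eif4a3, the core of the exon junction complex, was at -1.02 (adjusted p = 0.00104). Of the translation initiation enzymes, Eif4a1 was at -0.48 (adjusted p = 0.0222) and Eif4a2 at 0.56 (adjusted p = 0.00792). The call of Eif4a1 was lost without A16 replicate 1 (-0.51), A16 replicate 2 (-0.45) or NA16 replicate 2 (-0.36), and that of Eif4a2 without NA16 replicate 1 (0.49). Ascc3 was at 0.59, still called, with its probe sets averaged. The direction of Eif4a2 also depends on its probe sets, since the mean over them gave -0.02. The counts of this list and of those below stand beside 16.9% lower and 21.9% higher over all genes.

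The list of cofactors held proteins that bind or regulate RNA helicases, among them partners of the eIF4A proteins, which lie outside the family. Of 40 measured, 15 were lower, 4 higher and 21 not called, at a median of -0.33. The largest falls were those of Dgcr8, the partner of Drosha (-2.04, adjusted p = 0.000616), Alyref, an export adaptor recruited by Ddx39b (-1.96, adjusted p = 0.000249), Eif4g1, the scaffold of eIF4A (-1.96, adjusted p = 0.00153), and Bysl, a small subunit assembly factor (-1.94, adjusted p = 0.000101). With its probe sets averaged Alyref was at -1.05, still called. The cofactors called higher were Pdcd4 (1.10), Nop53 (0.86), Eif4b (0.64) and Rbm5 (0.37). Some partners were looked up after their values were seen. Gemin4 and Gemin5, which share the SMN complex with Ddx20, were at -1.60 (adjusted p = 0.000179) and -1.22 (adjusted p = 0.00253), while Smn1 and Gemin2 of the same complex were at -0.19 and 0.02 and were not called. Rtcb, the tRNA ligase that works with Ddx1, was at -1.05 (adjusted p = 0.000626). Of the G-patch proteins in the list, Nkrf, Gpatch4 and Pinx1 were lower at -1.93, -1.38 and -1.50 and Rbm5 was higher at 0.37, while Gpatch1 (0.34), Gpatch2 (0.15), Sugp1 (0.09), Tfip11 (-0.20) and Gpkow (-0.50) were not called.

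The third list followed the RIG-I-like receptor pathway, of which 17 genes were measured. Rigi, the receptor also known as Ddx58 that names the pathway, was not analysed here. In the list 10 genes were higher, 2 lower and 5 not called, at a median of 0.53, and Dhx58 is one of the 10. The antiviral GTPases Mx1 and Mx2 were at 3.26 (adjusted p = 0.000276) and 1.52 (adjusted p = 0.000416), and Irf7, the factor that amplifies interferon genes, at 1.49 (adjusted p = 0.0102). The change of Mx2 was 0.75, still called, with its probe sets averaged. Irf7 varied within NA16, with 10.09 on biological replicate 2 against 8.79 and 9.14 on the other NA16 arrays, and its change was 0.93 without NA16 replicate 2, still called. Irf7 no longer passed when A16 replicate 2 was left out (1.44). Ifih1, which encodes MDA5, was at 0.30 and Ifnb1 at 0.20, neither called, with Ifnb1 dim on every array at 5.08 to 5.46. Lower were Irf3 at -0.71 and Traf3 at -0.66, which carry the signal from the receptors. Mavs and Tbk1, which also carry it, were called higher at 0.65 and 0.48.

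**Figure D5:**
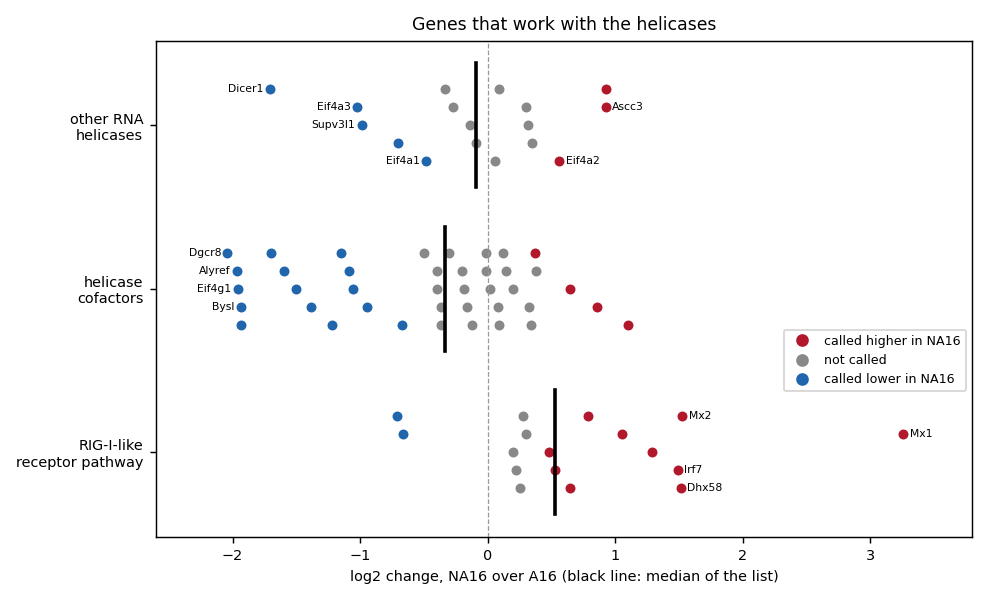
Log2 change, NA16 over A16, of the genes measured in 3 partner lists (17 other RNA helicases, 40 cofactors and 17 genes of the RIG-I-like receptor pathway); colour gives the call, the black line the median of the list, and the vertical scatter only separates points. The medians are -0.10, -0.33 and 0.53, and Mx1 stands furthest to the right.

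Markers of other cell types were read beside these changes. Of the macrophage and leukocyte markers 1 of 6 was higher, Cd68, a lysosomal protein, at 1.46, and the mean level of the list was 6.85 to 6.97 on NA16 arrays and 6.70 to 6.82 on A16 arrays. Ptprc and Adgre1, which define leukocytes and macrophages, were dim in both states, at 5.61 to 5.76 and 4.62 to 4.93 on NA16 arrays and at 5.74 to 5.93 and 4.69 to 4.73 on A16 arrays. Cd14, of the same list, was bright at 10.10 to 10.38 on NA16 arrays and 10.44 to 10.63 on A16 arrays, and its change of -0.35 was not called. Among the epithelial genes 2 of 5 were higher, Krt8 at 1.26 and Epcam at 0.54, with a list mean of 6.72 to 6.82 on NA16 arrays and 6.35 to 6.47 on A16 arrays. Of the endothelial markers 1 of 3 was higher, Pecam1 at 0.48, and the list mean was 6.03 to 6.15 on NA16 arrays and 5.94 to 6.17 on A16 arrays. Whether other cells had a part in the helicase values was not tested beyond these levels.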

How the data were processed

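RNA from F111 rat fibroblasts, 3 NA16 arrays and 3 A16 arrays, was measured on Affymetrix rat expression arrays. Scans were processed by the authors in the GeneChip Operating Software, and normalization was done in Avadis by RMA and by PLIER, so the 12 columns as deposited are 6 arrays under both algorithms. The values are intensity on a linear scale, the lowest RMA value being 16.05, so a constant may have been added before deposit, which would shrink the changes of dim genes. Log2 of the deposited RMA intensity was taken here.

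Probe sets with 1 gene symbol in the platform annotation were used (20826 of 31042 that were not controls), and all 47 helicase symbols matched the RefSeq gene table. The brightest probe set stood for each gene. Technical replicate 2 was averaged with biological replicate 1. The sources used here do not say what made a repeat biological. The p-values therefore cover the spread between these particular samples only, and it may be technical. Linear models were fitted with limma 3.58.1 (R 4.3.3; lmFit, then eBayes) for NA16 against A16, and p-values were adjusted over 14217 genes by the Benjamini-Hochberg method at a threshold of 0.05. A gene is called when it passes. The arrays' small number limits the precision.

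The family, the role groups, the lists (other RNA helicases, helicase cofactors, RIG-I-like receptor pathway, and fibroblast, macrophage and leukocyte, epithelial, endothelial and germ cell markers) and the tests were chosen with earlier results of these data known. Values on every array are given for the 12 largest falls, the 6 largest rises and the 6 brightest helicase genes not called, and up to 4 called genes per partner list and the eIF4A genes are named, with others where stated. The 19 alternatives covered the replicate block, PLIER, offsets, replicate averaging, variance model, the methods' t-test, probe set averaging, filters, scaling and leaving out replicates. Protein sequences were not used here.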

Additional observations from a re-analysis of the deposited data

How the results depend on the processing

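The methods' t-test with Benjamini-Hochberg adjustment over all genes called 0 helicase genes lower and 0 higher, with or without the 2-fold limit, and 0 genes of each partner list in either direction. Over all genes it called 7 lower and 13 higher. Unadjusted, at a p under 0.05, it gave 20 helicase genes lower and 7 higher, beside 14.5% and 18.1% of all genes. It also gave 3 other RNA helicases lower and 6 genes of the RIG-I-like receptor pathway higher. The replicate numbers are shared by the states, and differences between replicates 1 and 2 correlated at 0.557 between the states, but with only 2 pairs the numbers were not taken to pair the samples. With the replicate block, 26 helicase genes were lower and 11 higher, among them the 25 and 8 named above. Over all genes the block called 21.9% lower and 27.5% higher, more than without it. The added helicase genes were Ddx6, lower, and Ddx47, Ddx55 and Ddx59, higher. With the block 6 other RNA helicases were higher in place of 3. The median change of the helicase genes was -0.476 with PLIER and -0.475 with 16 added to PLIER. Leaving out each replicate in turn gave -0.528 to -0.474 for the median, 20 to 23 genes lower and 6 to 8 higher. Eif4a2 changed sign with its probe sets averaged (-0.025). With only 2 replicates per state, small changes such as those of Dhx32 and Dhx38 are near the limit of what these arrays can call.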
